A study of Saccharomyces cerevisiae with 12 samples.

Results

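The genes described here are the regulators of the yeast sulfur regulon and the permeases that bring methionine and a methionine derivative into the cell. They are the activator gene MET4, its cofactor gene MET28, the DNA-binding partner genes MET31, MET32 and CBF1, the inhibitor gene MET30, and the permease genes MUP1, MUP3 and MMP1. They were picked by name and role, with earlier results of these data known, as 9 of the 7126 genes in the table. All 9 passed the filter on low values. The libraries came from Saccharomyces cerevisiae strain BY4741, and fell into 4 groups of 3 libraries. These were slt2 mutant cells with 100 µg/ml poacic acid for 1 h, slt2 cells with no treatment, wild-type cells with the same dose and time, and wild-type cells with no treatment. Poacic acid is a plant-derived compound that interferes with the cell wall, and SLT2 encodes the MAP kinase of the cell wall integrity pathway. Every group shares the BY4741 background, a haploid laboratory strain that lacks LEU2, URA3, MET17 and a working HIS3. MET17 encodes the enzyme that fixes sulfide into homocysteine, so cells of this background need an organic source of sulfur such as methionine, and the growth medium is not given in the sources used here. The labels do not say how many independent slt2 clones were used.

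Met4 switches on the genes of sulfate reduction and of methionine and cysteine synthesis, but it does not bind DNA by itself. It is brought to promoters either by Cbf1 together with Met28, or by the zinc finger proteins Met31 and Met32. Met30 is the F-box subunit of a ubiquitin ligase that marks Met4 and holds it inactive when methionine and cysteine are plentiful. Mup1 is the high-affinity methionine permease, Mup3 is a relative of low affinity, and Mmp1 carries S-methylmethionine, which the cell can turn into methionine.

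The promoter windows of the 4 genes with the clearest differences between groups are given here, because Met4 acts through DNA motifs in such windows. Each runs from base 350 to base 51 before the start codon, 5′ to 3′ on the strand of the gene, in build R64 of the RefSeq genome. Capitals mark matches to CACGTG, the motif bound by Cbf1, or to TGTGGC and AAACTGTG, the shorter and longer forms of the motif bound by Met31 and Met32, on either strand.
MET28: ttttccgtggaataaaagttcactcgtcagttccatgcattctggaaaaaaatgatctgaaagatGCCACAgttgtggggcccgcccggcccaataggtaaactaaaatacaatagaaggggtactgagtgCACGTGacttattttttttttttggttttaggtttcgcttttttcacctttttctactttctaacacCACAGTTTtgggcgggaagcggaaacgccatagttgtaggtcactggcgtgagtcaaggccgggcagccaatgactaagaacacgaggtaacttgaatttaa
MUP1: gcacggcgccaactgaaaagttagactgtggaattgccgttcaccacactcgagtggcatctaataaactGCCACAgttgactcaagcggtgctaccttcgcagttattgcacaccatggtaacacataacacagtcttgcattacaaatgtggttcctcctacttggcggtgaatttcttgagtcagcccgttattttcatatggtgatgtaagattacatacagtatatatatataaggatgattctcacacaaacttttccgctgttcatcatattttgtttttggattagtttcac
MUP3: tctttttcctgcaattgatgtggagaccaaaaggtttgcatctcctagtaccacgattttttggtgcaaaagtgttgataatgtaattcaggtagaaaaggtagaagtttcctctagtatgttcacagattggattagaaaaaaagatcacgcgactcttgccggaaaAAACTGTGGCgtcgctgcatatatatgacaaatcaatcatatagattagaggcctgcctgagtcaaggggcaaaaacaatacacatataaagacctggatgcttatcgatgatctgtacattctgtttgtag
MMP1: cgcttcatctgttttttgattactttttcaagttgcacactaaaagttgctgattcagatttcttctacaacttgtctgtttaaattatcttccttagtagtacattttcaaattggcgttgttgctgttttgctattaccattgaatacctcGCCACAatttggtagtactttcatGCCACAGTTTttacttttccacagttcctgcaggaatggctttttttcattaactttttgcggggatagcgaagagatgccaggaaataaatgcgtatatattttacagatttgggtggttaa

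These windows lie at chrIX:384170-384469 (minus strand) for MET28, chrVII:599067-599366 (plus) for MUP1, chrVIII:25891-26190 (plus) for MUP3 and chrXII:17606-17905 (plus) for MMP1. The MUP3 window overlaps the reading frame YHL037C, which starts 61 bp before MUP3 and runs the other way. The 342 bp between MMP1 and MHT1 are shared by these divergent genes, and MHT1 encodes the enzyme that makes methionine from S-methylmethionine. The MMP1 matches at bases 173 to 168 and 197 to 192 before its start codon are therefore also MHT1 promoter matches.

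Over the 500 bases before the start codon, CACGTG was found for 6 of the 9 genes (MET4, MET28, MET30, MET32, CBF1 and MUP3), against 6.01% of 6659 coding genes. TGTGGC was found for 7 of the 9, against 14.3% of coding genes, and AAACTGTG for 6 of the 9, against 2.67%. These motifs are not particular to the 9 genes. Among sulfate uptake and reduction genes 8 of 9 held CACGTG, 6 TGTGGC and 2 AAACTGTG. Among methionine and cysteine synthesis genes the counts were 7, 6 and 5 of 13, and among genes for other sulfur sources 1, 9 and 1 of 10. The shorter and longer Met31 and Met32 motifs overlap where the sequence reads through both, as upstream of MET30, MET32, MUP3 and MMP1. MET28 held 1 match to each of the 3 motifs, with CACGTG at bases 219 to 214. MUP1 and MMP1 held no CACGTG there, and each held 2 matches to TGTGGC. MET31 held none of the 3, as did 79.1% of coding genes. A match is a string of letters and was not tested for binding.

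**Figure D1:**
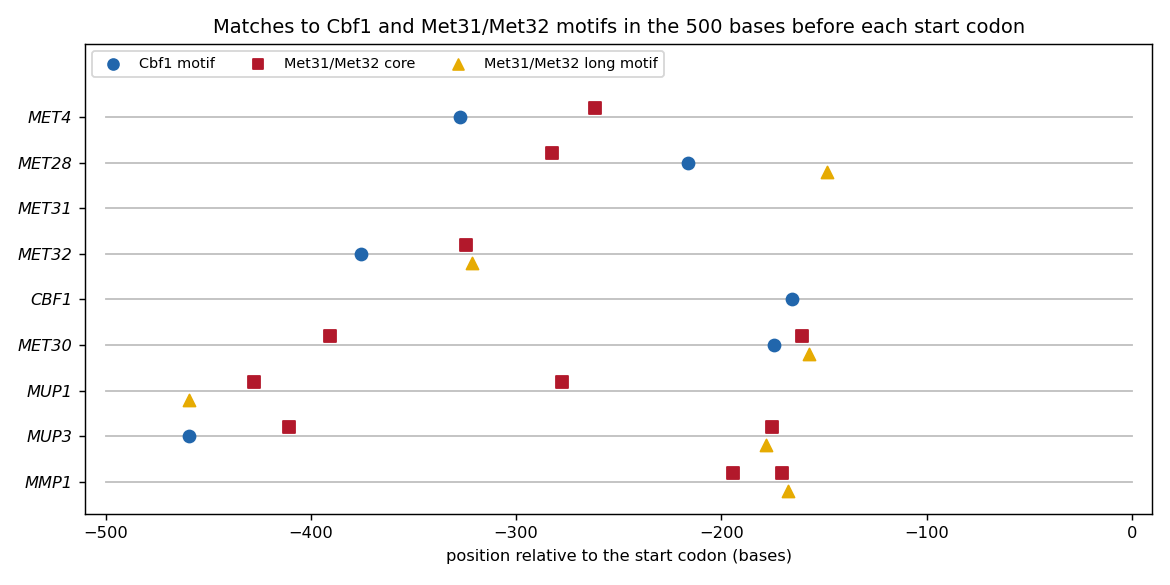
Matches to the Cbf1 motif (circles) and to the shorter (squares) and longer (triangles) Met31 and Met32 motifs, by distance in bases from the start codon, for each of the 9 genes over 500 bases. The CBF1 row has 1 match, the MET31 row is empty, and MUP1 and MMP1 have squares and triangles but no circle.

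The libraries held 3462643 to 10542500 reads, as worked out from the smallest steps of the RPKM values. RPKM is reads per kilobase of gene and per unit of library depth, so levels can be compared between genes, but it is a share of the library and does not tell fewer cells with a transcript from less of it per cell. SLT2 had 0 or 1 read in each of the 6 slt2 libraries and 372 to 3059 reads in the wild-type libraries, and MET17 had 1 read in all 12 libraries together. STE2, which encodes the pheromone receptor of a cells, read 107 to 331 RPKM, whereas STE3, its counterpart of alpha cells, read 0.293 to 2.02 RPKM. MFA1, another gene expressed by a cells and 111 bp long, was low, unlike STE2, at 0 to 7.47 RPKM on 0 to 5 reads. MF(ALPHA)1, expressed by alpha cells, read 0 to 0.719 RPKM. The rRNA share of reads in listed genes was mostly higher in slt2 libraries. It was 5.64 to 5.93% in treated slt2, 4.54 to 6.21% in untreated slt2, 0.0979 to 4.84% in treated wild type and 0.085 to 0.682% in untreated wild type, and differences between the strains are given with this share as a covariate as well.

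In untreated wild-type cells the 9 genes spanned a wide range of levels. MUP1 was the highest at 109 ± 11.4 RPKM (mean ± SD, n = 3), above 88.0% of the 6692 coding genes, and CBF1 followed at 64.6 ± 14.1 RPKM. MET4 (47.7 ± 7.13), MET30 (39.0 ± 2.51) and MET31 (38.3 ± 2.61 RPKM) came next, all above the median coding gene at 20.9 RPKM. MMP1 stood at 27.6 ± 2.93 RPKM. MUP3 (10.7 ± 3.09), MET32 (8.03 ± 0.612) and MET28 (3.10 ± 1.30 RPKM) were below that median. MET28 therefore had the lowest level of the 9 genes in untreated wild type, above 14.6% of coding genes, and rested there on 21, 13 and 7 reads. In treated slt2 cells it rested on 150, 58 and 59 reads and stood above 60.6% of coding genes.

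**Figure D2:**
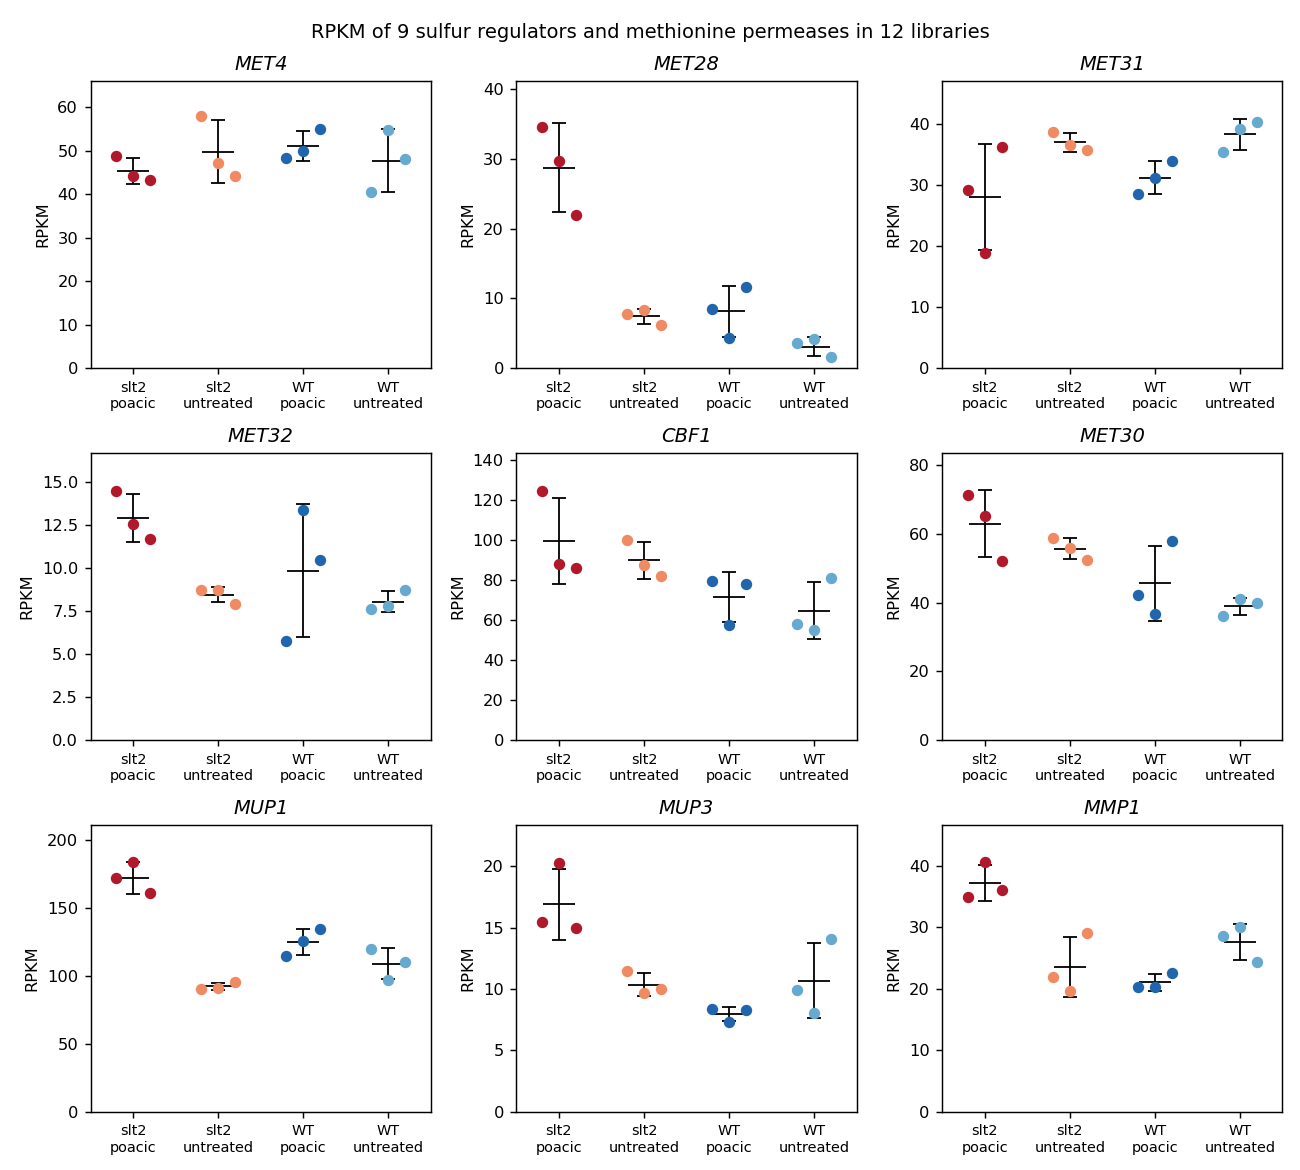
RPKM of each of the 9 genes in all 12 libraries (points), with the mean and SD of each group (black bars, n = 3). The 3 treated slt2 libraries of MET28, MUP1, MUP3 and MMP1 lie above every other library of the same gene, while MET4 shows overlapping groups throughout.

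Poacic acid raised the transcripts of 1 regulator and 2 permeases in slt2 cells. MET28, MUP1 and MMP1 rose, none of the 9 genes fell, and the other 6 did not pass the test (adjusted p under 0.05, limma with Benjamini-Hochberg correction over 6222 tested genes). Of all tested genes 8.45% passed in this comparison, 5.29% higher and 3.17% lower with the compound. The median log2 change of the 9 genes was 0.55, against 0.03 for all tested genes. All log2 changes given here are differences of group means of log2(RPKM + 1), which makes the changes of genes with low levels smaller.

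MET28 (YIR017C, chromosome IX, 383556 to 384119, minus strand) read 34.6, 29.7 and 22.0 RPKM in treated slt2 libraries, against 7.77, 8.32 and 6.25 RPKM in untreated slt2 libraries. The groups did not overlap, as for 31% of all tested genes (18.2% with the treated group higher), and every treated slt2 library also exceeded every wild-type library. The rise was 1.80 ± 0.31 on the log2 scale (estimate ± SE, adjusted p = 0.00269, limma), a ratio of 3.86 between mean RPKM values, and it was larger in size than that of 99.1% of tested genes. It passed in all 12 fits that left out 1 library. MET28 shares 554 bp with the reading frame YIR017W-A on the opposite strand, which read at most 4.19 RPKM, and whether reads were counted by strand is not given in the sources used here.

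The gene for the high-affinity permease moved with little spread. MUP1 (YGR055W, chromosome VII, 599417 to 601141, plus strand) read 172, 184 and 161 RPKM in treated slt2 libraries, against 90.2, 91.2 and 95.5 RPKM in untreated ones. These groups lay far apart for their spread, with counts of 795 to 2280 reads behind the values. The rise was 0.89 ± 0.11 on the log2 scale (adjusted p = 0.000205, limma), and it too passed in all 12 fits that left out 1 library. MMP1 (YLL061W, chromosome XII, 17956 to 19707, plus strand) read 34.9, 40.6 and 36.0 RPKM in treated slt2 libraries, against 22.0, 19.7 and 29.0 RPKM in untreated ones. Its groups did not overlap either, and it rose by 0.65 ± 0.15 (adjusted p = 0.0138, limma). That call was lost without treated slt2 replicate 2 (adjusted p = 0.0803), untreated slt2 replicate 1 (0.0562) or untreated slt2 replicate 2 (0.0686).

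MUP3 (YHL036W, chromosome VIII, 26241 to 27881, plus strand) lay at the threshold. It read 15.4, 20.2 and 15.0 RPKM in treated slt2 libraries, against 11.5, 9.67 and 9.98 RPKM in untreated ones. The groups did not overlap and the log2 change was 0.65 ± 0.19 (adjusted p = 0.0514, limma). It passed when treated slt2 replicate 3 (0.0497), treated wild-type replicate 2 (0.0472) or 3 (0.0492), or untreated wild-type replicate 2 (0.0409) or 3 (0.0292) was left out. It also passed with a pseudocount of 5 (0.0433), a filter of 5 RPKM (0.0482), library weights (0.0118), only the slt2 libraries (0.0321) or the replicate number as a block (0.0451).

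The genes for Met4 and most of its partners did not pass in slt2 cells. MET4 (YNL103W, chromosome XIV, 427735 to 429753, plus strand) read 48.7, 44.2 and 43.1 RPKM in treated libraries, against 58.0, 47.1 and 44.2 RPKM in untreated ones. The ranges overlapped, and the 95% interval of the log2 change ran from -0.42 to 0.17. MET30 (YIL046W, chromosome IX, 268651 to 270573, plus strand) read 71.3, 65.3 and 52.2 RPKM in treated libraries, against 58.7, 55.8 and 52.5 RPKM in untreated ones, with an interval of -0.18 to 0.51. CBF1 (YJR060W, chromosome X, 548759 to 549814, plus strand), which also serves at centromeres, read 124, 88.1 and 86.1 RPKM in treated libraries, against 99.9, 87.2 and 81.8 RPKM in untreated ones, with an interval of -0.26 to 0.53. Treated replicate 1 was the highest library for both MET30 and CBF1.

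Neither zinc finger gene passed. MET32 (YDR253C, chromosome IV, 963990 to 964565, minus strand) read 14.4, 12.5 and 11.7 RPKM in treated slt2 libraries, against 8.70, 8.71 and 7.92 RPKM in untreated ones. Its groups did not overlap, but the log2 change of 0.55 ± 0.23 did not pass (adjusted p = 0.163, limma). It passed without treated wild-type replicate 1 (0.0457), with library weights (0.0352) and with only the slt2 libraries (0.0396). MET31 (YPL038W, chromosome XVI, 480535 to 481068, plus strand) read 29.2, 18.9 and 36.2 RPKM in treated libraries, against 38.7, 36.7 and 35.7 RPKM in untreated ones. The treated libraries were scattered, on 35 to 120 reads, and the log2 change was -0.43 ± 0.18 (adjusted p = 0.177, limma). It passed without treated slt2 replicate 3 (0.031) and with library weights (0.0449). Whether MET31 and MET32 differ from each other in response was not tested.

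**Figure D3:**
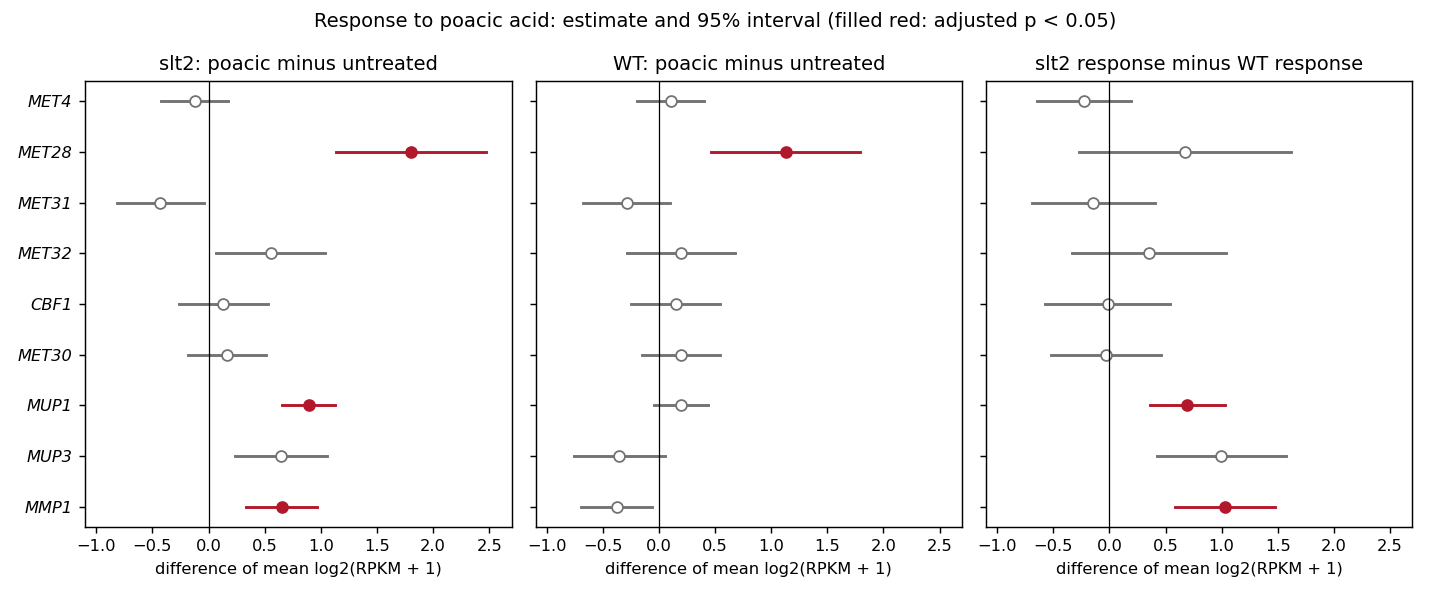
Change of mean log2(RPKM + 1) with poacic acid in slt2 cells (left) and in wild-type cells (middle), and the slt2 change minus the wild-type change (right), with 95% intervals from limma and filled red points where adjusted p was under 0.05. MET28, MUP1 and MMP1 are red on the left, MET28 in the middle, and MUP1 and MMP1 on the right.

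In wild-type cells 1 of the 9 genes rose with poacic acid and none fell, where 5.83% of all tested genes passed, 3.87% higher and 1.96% lower. The median log2 change of the 9 was 0.15, against 0.02 for all tested genes. MET28 read 8.45, 4.37 and 11.6 RPKM in treated wild-type libraries, against 3.54, 4.13 and 1.64 RPKM in untreated ones. The lowest treated library was just above the highest untreated one, a separation found for 22.6% of all tested genes, and the log2 change was 1.13 ± 0.31 (adjusted p = 0.049, limma). This call stands at the edge of the threshold. It held without treated wild-type replicate 2 (0.00935) and treated slt2 replicate 3 (0.0484), and was lost without any 1 of the other 10 libraries: treated slt2 replicates 1 and 2, the 3 untreated slt2 replicates, treated wild-type replicates 1 and 3, and the 3 untreated wild-type replicates, with adjusted p of 0.0557 to 0.206. It was lost as well in 7 of 10 other analyses, the replicate number as a block among them (0.0621), and with rRNA share as a covariate (log2 change 0.63, adjusted p = 0.35), and the treated wild-type libraries with 8.45, 4.37 and 11.6 RPKM had rRNA shares of 2.48, 0.0979 and 4.84%.

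None of the permease genes passed in wild type. MUP1 read 115, 126 and 134 RPKM in treated wild-type libraries, against 120, 97.2 and 110 RPKM in untreated ones, so the ranges overlapped (log2 change 0.20, 95% interval -0.04 to 0.43). MMP1 read 20.2, 20.2 and 22.5 RPKM in treated libraries, against 28.5, 29.9 and 24.3 RPKM in untreated ones. All treated libraries of MMP1 were the lower ones, as for 9.39% of all tested genes, with a log2 change of -0.37 ± 0.15 that did not pass (adjusted p = 0.155, limma). MUP3 read 8.38, 7.28 and 8.25 RPKM in treated libraries, against 9.89, 8.08 and 14.1 RPKM in untreated ones, and its ranges overlapped (-0.35, interval -0.76 to 0.06).

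None of the regulators other than MET28 passed in wild type. MET4 read 48.4, 49.9 and 54.9 RPKM in treated wild-type libraries, against 40.4, 54.6 and 48.1 RPKM in untreated ones (log2 change 0.10, interval -0.19 to 0.40). MET30 read 42.2, 36.7 and 57.9 RPKM in treated libraries, against 36.1, 41.0 and 39.8 RPKM in untreated ones, and treated replicate 3 made most of that spread. CBF1 read 79.3, 57.2 and 78.0 RPKM in treated libraries, against 58.0, 55.1 and 80.8 RPKM in untreated ones. Both ranges overlapped, with intervals of -0.15 to 0.54 for MET30 and -0.25 to 0.55 for CBF1. MET31 read 28.5, 31.3 and 34.0 RPKM in treated libraries, against 35.4, 39.2 and 40.4 RPKM in untreated ones. Every treated library of MET31 was lower, by a log2 change that did not pass (-0.29, adjusted p = 0.394, limma). MET32 read 5.73, 13.3 and 10.4 RPKM in treated libraries, against 7.58, 7.77 and 8.72 RPKM in untreated ones, and the treated libraries spread on both sides of the untreated ones.

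MUP1 and MMP1 passed the test of the difference itself (slt2 response minus wild-type response), where 1.72% of all tested genes passed and 0.723% passed with the larger change in slt2, and none of the 9 genes passed in the other direction. For MUP1 the log2 change was 0.89 in slt2 and 0.20 in wild type, a difference of 0.69 ± 0.16 (adjusted p = 0.0381, limma). For MMP1 it was 0.65 in slt2 and -0.37 in wild type, a difference of 1.03 ± 0.21 (adjusted p = 0.0209, limma). MUP3 had a difference of about the same size as MMP1 but did not pass (1.00 ± 0.27, adjusted p = 0.0904, limma). MET28, with rises in both strains, had a difference of 0.67 with a wide interval of -0.27 to 1.62. For MET4, MET30, MET31, MET32 and CBF1 the differences lay between -0.23 and 0.36 and did not pass. The MUP1 call was lost without treated slt2 replicate 1 or 2, untreated slt2 replicate 1, 2 or 3, treated wild-type replicate 1, or untreated wild-type replicate 1 or 3 (adjusted p of 0.0709 to 0.117), and the MMP1 call without treated slt2 replicate 2, untreated slt2 replicate 1 or 2, or untreated wild-type replicate 1 or 2 (0.0593 to 0.0727). MUP1 was also lost with median-of-ratios scaling (0.057) or quantile normalisation (0.0582). Dropping both the intensity trend and the robust variances (0.0748) lost it too, as did the replicate number as a block (0.0591). MMP1 passed in those 4 analyses. With rRNA share as a covariate both passed (0.0393 for MUP1 and 0.035 for MMP1).

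With the compound present, all 3 permease genes and MET28 were higher in slt2 than in wild-type cells, none of the 9 was lower, and 8.21% of all tested genes passed, 3.99% higher and 4.23% lower in slt2. MET28 averaged 28.8 ± 6.34 RPKM in treated slt2 and 8.15 ± 3.64 RPKM in treated wild type (SD, n = 3 each), a log2 difference of 1.76 (adjusted p = 0.0022, limma). MUP3 averaged 16.9 ± 2.90 and 7.97 ± 0.598 RPKM in treated slt2 and treated wild type, a difference of 0.99 (adjusted p = 0.0042, limma). MMP1 averaged 37.2 ± 2.97 RPKM in treated slt2 and 21.0 ± 1.34 RPKM in treated wild type, a difference of 0.79 (adjusted p = 0.00315, limma). MUP1 averaged 172 ± 11.6 RPKM in treated slt2 and 125 ± 9.72 RPKM in treated wild type, a difference of 0.46 (adjusted p = 0.0182, limma). In these 4 genes the ranges of the 2 treated groups did not overlap, as for 23% of all tested genes (8.94% with slt2 higher). The same held for CBF1, which averaged 99.5 RPKM in treated slt2 and 71.5 RPKM in treated wild type. Its log2 difference of 0.47 did not pass (adjusted p = 0.148, limma). The MUP1 call was lost without treated slt2 replicate 1 (0.0657), treated slt2 replicate 2 (0.0939) or treated wild-type replicate 1 (0.0756), and with only the treated groups (0.0778). With rRNA share as a covariate none of the 4 calls held (adjusted p = 0.235 for MET28, 0.287 for MUP1, 0.117 for MUP3 and 0.088 for MMP1). The log2 differences were then 0.97, 0.39, 0.93 and 0.79, against 1.76, 0.46, 0.99 and 0.79 without it. The share ran from 5.64 to 5.93% in treated slt2 and from 0.0979 to 4.84% in treated wild type. These ranges did not overlap, so share and strain are hard to tell apart here as well. Over all tested genes 185 passed with this covariate, against 511 without it.

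Without the compound 0 of the 9 genes passed between slt2 and wild type by limma, where 1.75% of all tested genes passed, 0.884% higher and 0.868% lower in slt2. The 3 genes with the smallest adjusted p of the 9 were MET28, MET30 and CBF1. MET28 averaged 7.45 ± 1.08 RPKM in untreated slt2 and 3.10 ± 1.30 RPKM in untreated wild type (log2 difference 1.09, adjusted p = 0.0784, limma). MET30 averaged 55.7 ± 3.11 RPKM in untreated slt2 and 39.0 ± 2.51 RPKM in untreated wild type (0.50, adjusted p = 0.0979), and CBF1 averaged 89.6 ± 9.27 RPKM in untreated slt2 and 64.6 ± 14.1 RPKM in untreated wild type (0.48, adjusted p = 0.139). In each of the 3 every slt2 library was above every wild-type library, as for 11.3% of all tested genes. MET28 passed without treated wild-type replicate 2 (0.0293) or 3 (0.0324) and MET30 without treated wild-type replicate 3 (0.0319). Both passed with only the untreated groups (0.0323 and 0.0237), and library weights put all 3 genes past the threshold (0.0112, 0.0149 and 0.0382). Once rRNA share was a covariate, the log2 differences were -0.060 for MET28, -0.039 for MET30 and 0.10 for CBF1, and none passed. The share ran from 4.54 to 6.21% in untreated slt2 and from 0.085 to 0.682% in untreated wild type. Share and strain can therefore hardly be told apart in this comparison. Over all tested genes 1 passed with the covariate, against 109 without it. MUP1 averaged 92.3 ± 2.82 RPKM in untreated slt2 and 109 ± 11.4 RPKM in untreated wild type, which is the opposite order to that with the compound, and did not pass (-0.23, adjusted p = 0.213, limma), though all 3 slt2 libraries were lower, as for 23.8% of all tested genes.

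The groups of a gene could be put in order only in part. For MET28 treated slt2 stood clear of treated wild type, which overlapped untreated slt2, and untreated slt2 stood clear of untreated wild type. For MUP1 treated slt2 stood clear of treated wild type, which overlapped untreated wild type, and untreated wild type stood clear of untreated slt2. For MUP3 and MMP1 treated slt2 stood clear of untreated wild type, which overlapped untreated slt2, and treated wild type was the lowest group, clear of untreated slt2 for MUP3 but not for MMP1. For MET4, MET30 and MET32 all neighbouring groups overlapped.

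MET28 was the only 1 of the 9 genes whose group means spanned at least 1 on the log2 scale (2.89, against 0.99 for MUP3 as the next). The genes with the most similar profile over the 12 libraries were PUT4, RCN1 and PRB1, at a root mean square distance of 0.31, 0.40 and 0.40 on the log2 scale, where the median gene was at 1.15. PUT4, which encodes the proline permease, averaged 20.3 and 4.63 RPKM in treated and untreated slt2, and 4.40 and 2.03 RPKM in treated and untreated wild type. RCN1 encodes a regulator of calcineurin and PRB1 a vacuolar protease. This likeness is a description over libraries that share their group and their depth.

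Many enzyme genes that Met4 controls rose in slt2 cells. Of 9 genes of sulfate uptake and reduction 7 rose and 0 fell in slt2 (median log2 change 0.82), against 1 and 0 in wild type (0.32), and 4 passed the test of the difference. Over all tested genes 5.29% rose in slt2, 3.87% rose in wild type and 1.72% passed the test of the difference. MET14, the adenylylsulfate kinase gene, changed by 2.01 in slt2, MET3, the ATP sulfurylase gene, by 1.68 and MET10, a sulfite reductase subunit gene, by 1.04. Of 12 tested genes of methionine and cysteine synthesis 5 rose and 0 fell in slt2 (median 0.28), against 1 and 1 in wild type (-0.06), where 1.96% of all tested genes fell in wild type, and 4 passed the test of the difference. STR3, the cystathionine beta-lyase gene, rose by 2.33 in slt2 and by 0.85 in wild type. MET6, the methionine synthase gene, rose by 0.91 in slt2, while in wild type it fell by 0.62.

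**Figure D4:**
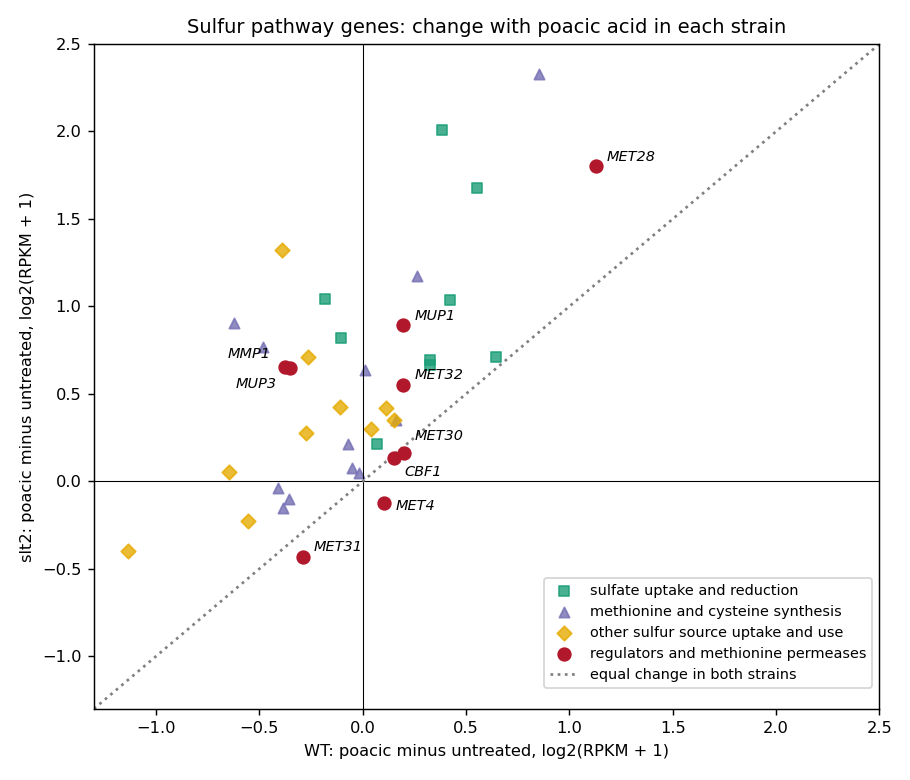
Change with poacic acid in slt2 cells (vertical axis) against that in wild-type cells (horizontal axis), both as differences of mean log2(RPKM + 1), for the 9 genes (red, named) and 3 lists of sulfur genes. The dotted line marks equal change, and MUP3 and MMP1 lie above 0 in slt2 and below 0 in wild type.

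Of 10 genes for other sulfur sources 1 rose and 1 fell in slt2, where 5.29% of all tested genes rose and 3.17% fell. In wild type 0 rose and 3 fell, where 3.87% of all tested genes rose and 1.96% fell. MHT1, the divergent neighbour of MMP1, averaged 17.3 ± 1.76 RPKM in treated slt2 and 6.29 ± 0.231 RPKM in untreated slt2, a rise of 1.32 (adjusted p = 4.46e-05, limma). It averaged 8.78 ± 0.518 RPKM in treated wild type and 11.8 ± 0.683 RPKM in untreated wild type, which did not pass (-0.39, adjusted p = 0.118). The difference of responses of MHT1 passed at 1.71 (adjusted p = 0.000314, limma), as that of MMP1 did. MHT1 was also lower in untreated slt2 than in untreated wild type (-0.81, adjusted p = 0.0269, limma). The same comparison did not pass for MMP1 (-0.23, adjusted p = 0.34, limma). Between treated strains MHT1 was higher in slt2 (0.90, adjusted p = 0.000709, limma). SAM3 and SAM4, which serve the uptake and use of S-adenosylmethionine, fell in wild type by 0.65 and 0.56. OPT1, which encodes an oligopeptide and glutathione transporter, fell in both strains (-1.14 in wild type and -0.40 in slt2). Its fall was smaller in slt2, and its difference of responses passed (0.74, adjusted p = 0.0347, limma). In that test 2 of the 10 genes passed, MHT1 and OPT1, where 1.72% of all tested genes passed.

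The lists of genes acting on the Met4 protein or on permeases are set beside 8.45% of all tested genes passing in slt2 and 5.83% in wild type, and counts of 0 or 1 in lists of this size do not stand apart from those shares. Of 9 genes for the ubiquitination of Met4 and its extraction from the ligase, 0 passed in slt2 and 1 rose in wild type, UFD1 (0.39, adjusted p = 0.0432, limma). Of 11 permease genes for other amino acids 1 rose and 1 fell in slt2 and 0 passed in wild type. The riser was GAP1, the general amino acid permease gene, which averaged 52.1 RPKM in treated slt2 and 17.1 RPKM in untreated slt2 (1.61, adjusted p = 0.00103, limma). TAT1 fell (-0.51, adjusted p = 0.0146, limma). GAP1 also passed the test of the difference (1.53, adjusted p = 0.0386, limma), where 1.72% of all tested genes passed. Between treated strains 2 of the 11 were higher in slt2, GAP1 (1.93) and DIP5 (0.59), where 3.99% of all tested genes were. In the same comparison 2 were lower, BAP3 (-0.39) and TAT1 (-0.51), where 4.23% of all tested genes were. Of 10 genes of permease ubiquitination and trafficking 1 rose in slt2, ECM21, which encodes an arrestin-related adaptor (0.59, adjusted p = 0.0458), and 0 passed in wild type.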

How the data were processed

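Total RNA of the 12 libraries was depleted and made into strand-specific libraries with 300 to 450 bp inserts, per the labels' protocols. The authors deposited 1 table of RPKM values with decimal commas, read here as points. Per the submitters' processing notes the build was R64. The aligner, counting program, strand setting and handling of reads with several matches are steps not given in the sources used here. The treatment text gives 1 h and the growth text 2 h. Per the design text each strain had 3 biological samples, each sequenced without and with the compound, but no label ties a replicate number to a sample. The numbers were therefore used as a block only as an alternative.

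Values of a gene times its length were whole multiples of 1 read, within 1%, for 98.7 to 99.2% of coding genes with few reads, which gave the read numbers. The 9 genes, the gene lists and the tests were chosen with earlier results of these data known. A gene was kept if 3 or more libraries reached 1 RPKM, and the 6222 kept were fitted as log2(RPKM + 1) with limma 3.58.1 in R 4.3.3, 1 mean per group, with an intensity trend and robust variances. Adjusted p values are Benjamini-Hochberg over all of them. The fit was tested on simulated data with independent noise and changes planted in treated slt2 libraries only. Only the slt2 response was scored, so that test does not cover the other comparisons. The 9 genes were all named, with up to 3 genes of each list by smallest adjusted p in each response, and the 3 nearest profiles of genes spanning at least 1 log2 unit. Motifs were searched in the R64 RefSeq genome, whose coordinates were the same for 6036 of 6048 matched genes. The planned comparison of proteins was not made.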

Additional observations from a re-analysis of the deposited data

Results flagged for a closer look

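MUP1 responded to poacic acid differently in the strains, by the test of the slt2 response minus the wild-type response: the log2 difference was 0.69 (adjusted p = 0.0381, limma), and all 3 treated slt2 libraries were above all 3 untreated slt2 libraries, while the wild-type ranges overlapped. That call was lost in 8 of 12 fits that left out 1 library (adjusted p of 0.0709 to 0.117) and in 4 of 9 other analyses (0.057 to 0.0748). MMP1 was picked out by the same test, with a log2 difference of 1.03 (adjusted p = 0.0209, limma), higher in 3 of 3 treated slt2 libraries and lower in 3 of 3 treated wild-type libraries than in any untreated library of the same strain. That call was lost in 5 of 12 fits that left out 1 library (0.0593 to 0.0727) and in 0 of the 9 other analyses.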

How the results depend on the processing

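Each comparison was run under 10 alternatives (9 for the difference of responses), with rRNA share as a covariate (chosen after seeing the data), and without each library in turn. The alternative called no trend also left out the robust variances. Of the 9 genes, 0 passed in the wild-type response with a pseudocount of 5, no filter, median-of-ratios scaling, quantile normalisation, no trend, only the groups compared, the replicate block, or the rRNA covariate, against 1 in the main analysis. In the slt2 response 6 passed with library weights and 5 with only the groups compared, against 3. In the difference of responses 1 passed with median-of-ratios scaling, quantile normalisation, no trend or the replicate block, against 2. Between untreated strains 3 passed with library weights and 2 with only the groups compared, against 0, and between treated strains 0 passed with the rRNA covariate, against 4. Without 1 library the counts ran from 0 to 1 (wild type), 2 to 5 (slt2), 0 to 2 (difference), 0 to 2 (untreated strains) and 3 to 5 (treated strains). The causes were not tested.

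Signs turned only for changes that did not pass. With library weights MET32 in wild type became -0.22, the MET30 difference 0.090 and MUP3 between untreated strains 0.036. With the rRNA covariate MET30 and CBF1 in wild type became -0.038 and -0.016, their differences of responses 0.14 and 0.10, and MET28 and MET30 between untreated strains -0.060 and -0.039. Between untreated strains MET31 became 0.032 and MUP3 0.062 with median-of-ratios scaling, and MUP3 0.057 with quantile normalisation. Without 1 library the signs turned for MET4 (-0.0071 to 0.21) and MET32 (-0.040 to 0.51) in wild type, CBF1 in slt2 (-0.037 to 0.23), and the differences of MET30 (-0.17 to 0.15), MET31 (-0.34 to 0.11) and CBF1 (-0.19 to 0.086). They also turned for MET4 (-0.052 to 0.16) and MUP3 (-0.18 to 0.19) between untreated strains and MET31 between treated strains (-0.39 to 0.061).

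Over all genes, 363 passed in wild type (156 to 682 over all alternatives), 526 in slt2 (231 to 1137), 107 in the difference (62 to 289), 109 between untreated strains (1 to 1142) and 511 between treated strains (185 to 1375). Between untreated strains 50.5% of calls were higher in slt2, and 68.3% with median-of-ratios scaling. With the replicate block 671, 711 and 179 genes passed in the 2 responses and their difference, and 122 and 478 between the strains. For the responses and their difference the block was the number within each strain. Between the strains it was the number shared by both strains, although no label ties the numbers across strains. The block put MUP3 in slt2 past the threshold (adjusted p = 0.0451) and took MUP1 out in the difference (0.0591) and MET28 out in wild type (0.0621). The design text says that each biological sample was sequenced without and with the compound, so pairs exist, but it does not say that the number marks the pair. Same-numbered treated and untreated libraries had correlations of deviations of -0.136 to 0.335. They exceeded the highest correlation with another number for slt2 2 (0.232 against 0.0253), slt2 3 (0.335 against -0.0486) and wild-type 2 (0.275 against -0.134). They fell below it for slt2 1 (0.0339 against 0.186), wild-type 1 (-0.136 against 0.233) and wild-type 3 (-0.0350 against 0.227). These values do not settle whether the number marks the pair, so the block was kept as an alternative. MET28 and MET32 rest on the fewest reads (7 to 150 and 18 to 81).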
